A study of Mus musculus with 2 samples.

Results

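The genes described here encode apolipoproteins, the proteins that coat the lipid particles of plasma. A list of 10 genes of this kind was taken (Apoa1, Apoa2, Apoa4, Apoa5, Apob, Apoc1, Apoc2, Apoc3, Apoe and Apom), and 9 of them matched a RefSeq accession of the tables, each through 1 accession, among 26440 genes in all. Apoc2 was not matched and is not analysed here. The samples were livers of BALB/c mice collected at day 11 after birth, 1 library with the genotype SRSF2-/- (the knockout, KO), described as liver-specific, and 1 wild-type (WT) library. SRSF2, a serine/arginine-rich protein, is a factor of pre-mRNA splicing. Which Cre line or promoter drove the deletion, which liver cells lost the gene, and how many animals gave each library are points on which the labels are silent. Each genotype had a single library, so differences could not be set against the spread between animals, and all values describe these libraries.

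Apolipoproteins hold cholesterol esters and triglycerides in solution and direct their particles to enzymes and receptors. Apoa1 and Apoa2 encode the main structural proteins of high-density lipoprotein (HDL), and Apob the large structural protein of very-low-density lipoprotein (VLDL) and chylomicrons. The small proteins encoded by the Apoc genes move between particles and modulate lipolysis and uptake, and apoE directs the uptake of remnant particles into cells. The liver is the main source of most of them, whereas apoA-IV in rodents comes from both intestine and liver. In the mouse genome, several of these genes lie in clusters, among them Apoa1, Apoc3, Apoa4 and Apoa5 on chromosome 9.

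In the comparison below, Apoa1 had the lowest and Apoa4 the highest log2 ratio of the chromosome 9 cluster. The sequences just upstream of these genes and of Apoa5 are shown, with none found for Apoc3 of that cluster. They are the 250 bases before the annotated start in RefSeq, on the plus strand of build GRCm38.p6, at chr9:46228380-46228629 for Apoa1, chr9:46240594-46240843 for Apoa4 and chr9:46268358-46268607 for Apoa5, where the first of the listed starts was taken. The deposited tables were made on another build and hold no coordinates. Capitals mark matches to the motifs described after the sequences.
Apoa1: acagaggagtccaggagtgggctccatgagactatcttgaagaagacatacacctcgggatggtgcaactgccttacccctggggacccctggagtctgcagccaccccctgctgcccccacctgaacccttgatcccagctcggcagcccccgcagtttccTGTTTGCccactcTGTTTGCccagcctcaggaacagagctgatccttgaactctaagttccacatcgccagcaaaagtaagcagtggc
Apoa4: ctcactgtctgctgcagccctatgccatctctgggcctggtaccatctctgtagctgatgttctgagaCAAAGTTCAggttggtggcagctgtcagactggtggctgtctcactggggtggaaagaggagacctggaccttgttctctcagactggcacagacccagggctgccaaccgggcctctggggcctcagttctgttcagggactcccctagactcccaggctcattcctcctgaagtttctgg
Apoa5: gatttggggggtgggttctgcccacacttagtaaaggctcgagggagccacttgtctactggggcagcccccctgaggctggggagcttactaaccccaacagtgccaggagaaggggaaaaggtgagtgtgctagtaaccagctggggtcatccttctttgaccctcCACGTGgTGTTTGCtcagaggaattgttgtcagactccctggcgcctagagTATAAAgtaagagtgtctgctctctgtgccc

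Of 5 motifs searched on both strands, Apoa4 held the core of an HNF4-type element (CAAAGTNCA) with its first base 182 bases before the start, a motif found in 1.19% of the 32851 upstream windows of the RefSeq table. The Apoa1 window held a forkhead element (TGTTTNC) at 88 and at 75 bases before the start, and 17.8% of all windows held this motif. Upstream of Apoa5 there was an E box (CACGTG) at 82 bases, a forkhead element at 75 bases and a TATA box (TATAAA) at 31 bases before the start, against 6.02% of all windows with the E box and 12.4% with the TATA box. The nuclear receptor hexamer (AGGTCA), in 14.0% of all windows, was not among the matches in these windows. Windows were found for 7 of the 9 genes, the others being Apoc1 and Apoc3. A forkhead match stood upstream of 5 of these 7 and a TATA match upstream of 4. Some genes have more than 1 annotated start, and by window, as for the shares above, the matches were 6 and 5 of 11. The other TATA matches lay at 212 bases for Apoa2, 96 and 100 for Apoe and 60 for Apob. All of these are letter matches in the reference, not measured sites.

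Levels are given as FPKM, the deposited fragment count scaled by transcript length and by library size, and can be compared between genes because they are per length. The deposited reads summed to 22111605 in the KO and 22407743 in the WT library. Brackets after a fold give its exact 95% Clopper-Pearson interval from the read counts, which covers counting error only. Srsf2 itself stood at 11.8 FPKM in the KO and 27.9 FPKM in the WT library, with 832 and 1998 reads. The scale of the 2 tables was not neutral, since 84.5% of the 12477 genes with at least 1 FPKM in either library had a higher value in the KO library, with a median log2 ratio of 0.55. Log2 ratios are log2((KO FPKM + 1)/(WT FPKM + 1)), so positive values are higher in KO. The centred log2 ratio is the same value minus that median of all tested genes. Alb, the serum albumin gene and the most abundant transcript, stood at 25492 FPKM in the KO and 50399 FPKM in the WT library. The KO library also held transcripts of exocrine pancreas (summed 719 FPKM against 9.20 in WT over 9 markers) and of skeletal muscle (72.8 against 0.158 over 7 markers). The libraries differed in sex-linked transcripts, with Xist at 0.0138 FPKM in KO and 27.4 FPKM in WT. The Y-linked gene Ddx3y stood at 7.02 FPKM in KO and 0 FPKM in WT. Sex and genotype thus cannot be told apart in these libraries. The part of these differences in the values below was not tested.

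The apolipoprotein transcripts differed from one another in direction and size. Apoa4 was 16.3-fold and Apoa5 2.32-fold higher in the KO library, whereas Apoa1, Apoc3 and Apom were 1.65 to 1.81-fold lower and Apob, Apoe and Apoc1 1.14 to 1.37-fold lower. Apoa2 was 1.13-fold higher. The direction of Apoa4 and Apoa5 was kept under every scaling tried, whereas Apoa2 stood below the median of all genes. The 6 genes that were lower as deposited stood higher relative to the median of the hepatocyte markers, as did most of all tested genes. By a size rule of 2-fold on the log2 scale, 2 of 9 genes were higher and 0 lower, against 19.2% and 2.95% of all 12477 tested genes. The share of higher genes was close to that of all genes. After subtracting the median, 1 of 9 was higher and 4 of 9 were lower, against 5.67% and 6.66% of all tested genes. Each of the 9 genes reached 100 FPKM in at least 1 library (Apoa4 in the KO library alone), as did 640 genes in all. Of these, 22.8% were at least 2-fold higher and 13.4% lower as deposited, and 10.8% and 23.8% after subtracting the median. The median log2 ratio of the 9 genes was -0.29 (centred, -0.85), against a median of 0.42 for those 640 genes.

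**Figure D1:**
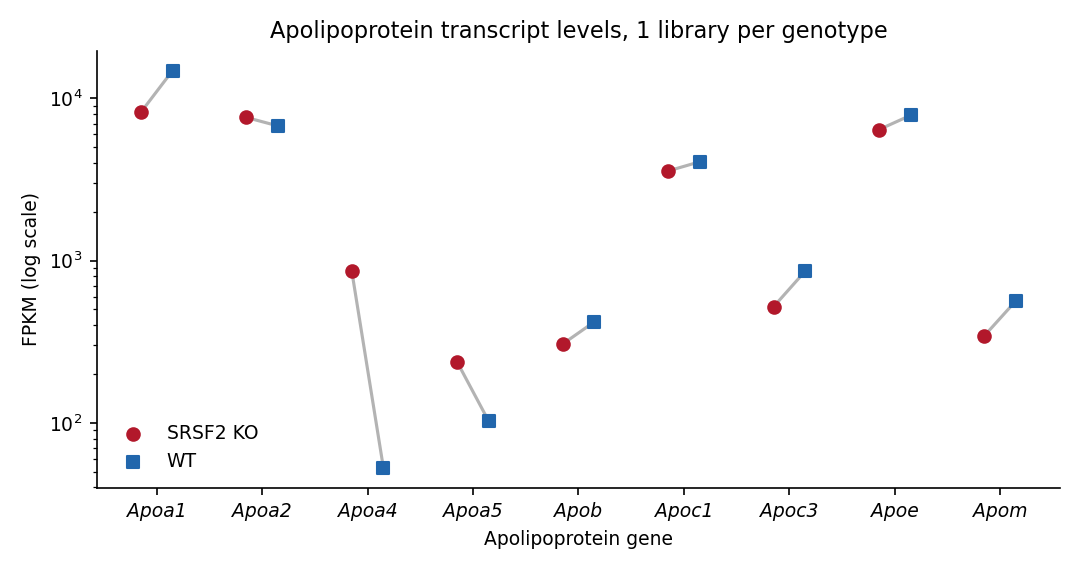
FPKM on a log axis of the 9 matched apolipoprotein genes in the SRSF2 KO (red circles) and WT (blue squares) library, 1 library per genotype, with a line joining the values of each gene. Apoa4 stood at 861 FPKM in KO against 52.7 FPKM in WT, and Apoa1 at 8220 against 14839 FPKM.

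Among the structural proteins of HDL, Apoa1 and Apoa2 differed in direction as deposited, although both lay below the median of all genes. Apoa1, which encodes apoA-I, the activator of the plasma cholesterol-esterifying enzyme LCAT, had 212900 reads in the KO and 388920 in the WT library, or 8220 and 14839 FPKM. It was 1.81-fold lower in KO (1.80 to 1.81), a log2 ratio of -0.85 (centred, -1.41). Apoa2, which encodes apoA-II, had 112001 reads in KO and 100531 in WT, or 7630 and 6767 FPKM. Its level was 1.13-fold higher in KO (1.12 to 1.14), but its log2 ratio of 0.17 became -0.38 when centred and -0.16 after rescaling without the 20 most abundant genes. There was thus almost as much Apoa2 as Apoa1 transcript in the KO library, 0.928 per Apoa1 transcript on the FPKM scale, against 0.456 in the WT library. Apoa1 ranked 3 among all genes by FPKM in KO and 4 in WT, and Apoa2 ranked 5 and 6.

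Apom encodes a lipocalin that rides mainly on HDL and carries sphingosine-1-phosphate. It had 6446 reads in KO and 10733 in WT, or 344 and 566 FPKM. This was 1.65-fold lower in KO (1.60 to 1.70), a log2 ratio of -0.72 (centred, -1.27). The ratio was closest to that of Apoc3 at -0.73, with Apoa1 at -0.85.

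Apoa4 had the largest difference of the 9 genes. It encodes apoA-IV, an exchangeable protein of chylomicrons and HDL that is linked to triglyceride export. It had 37585 reads in the KO and 2327 in the WT library, or 861 and 52.7 FPKM, 16.3-fold higher in KO (15.7 to 17.1). The log2 ratio of 4.01 (centred, 3.45) was higher than that of 99.7% of all tested genes. Apoa4 was the least abundant of the 9 in the WT library and ranked 5 of 9 in the KO library. Its level per Apoa1 transcript was 0.105 in KO and 0.00355 in WT.

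Because intestinal epithelium also makes apoA-IV, its markers were read beside this result. Of 14 markers, 5 reached 1 FPKM in a library, and these 5 had higher values in KO, 3 of them past 2-fold by the size rule (2 on the centred scale). Of all tested genes, 84.5% were higher in KO and 19.2% past 2-fold higher (5.67% on the centred scale). The list summed to 50.2 FPKM in KO and 22.1 FPKM in WT, most of it Fabp2, an intestinal fatty acid binding protein gene, at 29.3 and 16.9 FPKM. The transcription factor gene Cdx2 and the brush border genes Sis and Alpi were at 0 reads in both libraries, and the factor gene Cdx1 had 1 read in KO and 0 in WT. Cdh17, which encodes an intestinal cadherin, stood at 2.68 FPKM in KO and 0.0218 FPKM in WT. The galectin gene Lgals4 stood at 11.01 FPKM in KO and 2.78 FPKM in WT, the retinol-binding protein gene Rbp2 at 5.56 and 2.13 FPKM, and the mucin gene Muc2 at 1.02 and 0.0395 FPKM. Cdh17 and Muc2 reached 1 FPKM in the KO library alone, so the filter fixed their direction. The part of intestinal transcripts in the Apoa4 value was not tested.

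Apoa5, a low-abundance apolipoprotein that promotes lipolysis of triglycerides by lipoprotein lipase, was the other gene past 2-fold. It had 14398 reads in KO and 6276 in WT, or 237 and 102 FPKM, 2.32-fold higher (2.25 to 2.39). The log2 ratio was 1.21, but 0.65 when centred and 0.88 after rescaling without the 20 most abundant genes, so under these scalings it was below the 2-fold rule.

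Apob transcripts were modestly lower. Apob had 111516 reads in KO and 154619 in WT, which for this long transcript came to 306 and 419 FPKM. The level was 1.37-fold lower in KO (1.36 to 1.38), a log2 ratio of -0.45 (centred, -1.01), just past 2-fold on the centred scale. Counts per accession do not show whether a transcript was edited, so the apoB-100 and apoB-48 forms were not distinguished.

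Of the C apolipoproteins, Apoc3, whose product inhibits lipoprotein lipase and the uptake of remnants, had 8202 reads in KO and 13759 in WT. Its level of 519 FPKM in KO against 860 FPKM in WT was 1.66-fold lower (1.61 to 1.70), a log2 ratio of -0.73 (centred, -1.28). Apoc1, which encodes a small inhibitor of lipoprotein uptake and of lipid transfer, had 51848 reads in KO and 59759 in WT, or 3570 and 4066 FPKM. It was 1.14-fold lower (1.13 to 1.15), a log2 ratio of -0.19 (centred, -0.74). Apoc3 and Apoa5, which have opposite known actions on lipolysis, thus stood in an FPKM ratio, Apoc3 over Apoa5, of 2.19 in KO and 8.44 in WT. This is a ratio of transcripts, and neither protein nor lipolysis was measured.

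Apoe was 1.22-fold lower in KO (1.22 to 1.23), with 210544 reads and 6420 FPKM in KO against 260995 reads and 7864 FPKM in WT. The log2 ratio was -0.29 (centred, -0.85). Apoe is made by hepatocytes and also by macrophages. Of 12 measured macrophage and Kupffer cell markers, all 12 had higher values in KO, as had 84.5% of all tested genes. Past 2-fold higher were 7, and 3 after subtracting the median, against 19.2% and 5.67% of all tested genes. Of those 3, Trem2 and Gpnmb reached 1 FPKM in the KO library alone, so the filter fixed their direction. The marker sum was 1008 FPKM in KO and 394 FPKM in WT. No marker of this list was at 0 reads in either library. The complement genes C1qa and C1qb stood at 112 and 229 FPKM in KO and at 44.0 and 74.5 FPKM in WT. The part of macrophage transcripts in the Apoe value was not tested.

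**Figure D2:**
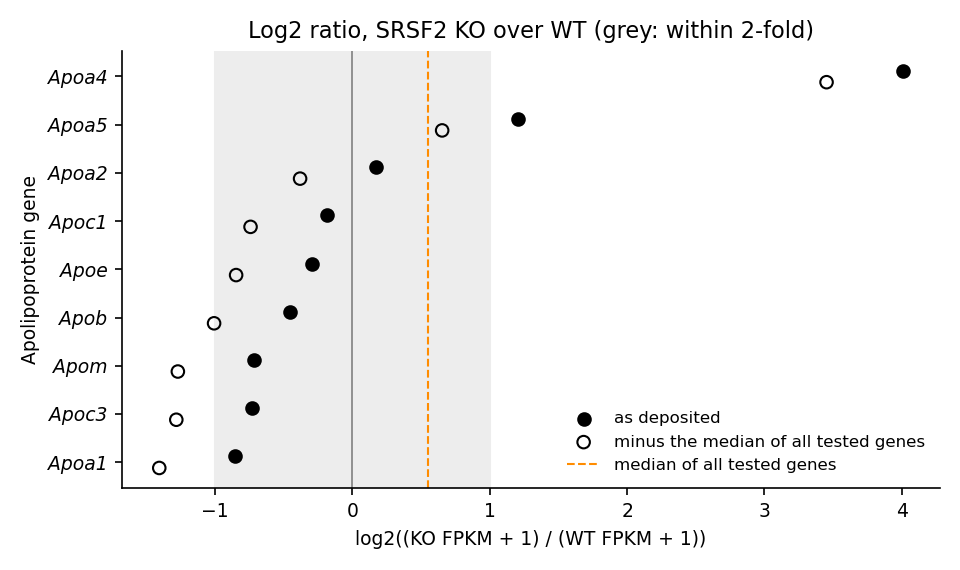
Log2 ratio of FPKM + 1, SRSF2 KO over WT, of each apolipoprotein gene as deposited (filled) and minus the median of all tested genes (open), with the grey band marking less than 2-fold and the dashed line the median of 0.55. Apoa4 and Apoa5 lie right of 0 on both scales, Apoa2 changes side, and 6 genes lie left of 0 on both. These 6 lie right of 0 when set against the median of the hepatocyte markers, as do most of all tested genes.

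The make-up of the apolipoprotein transcripts therefore differed between the libraries. Summed over the 9 genes, FPKM was 28106 in KO and 35536 in WT, a ratio of 0.791, which took 3.46% of the KO and 4.45% of the WT reads. Of this sum, Apoa1 made up 29.2% in KO and 41.8% in WT, Apoa2 27.1% and 19.0%, and Apoe 22.8% and 22.1%. Apoc1 made up 12.7% in KO and 11.4% in WT, and Apoa4 3.06% and 0.148%. By FPKM the order in KO was Apoa1, Apoa2, Apoe, Apoc1, Apoa4, Apoc3, Apom, Apob and Apoa5, and in WT it was Apoa1, Apoe, Apoa2, Apoc1, Apoc3, Apom, Apob, Apoa5 and Apoa4. All 8 steps of both orders were wider than the exact Poisson intervals of the counts, but none was measured against variation between animals.

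**Figure D3:**
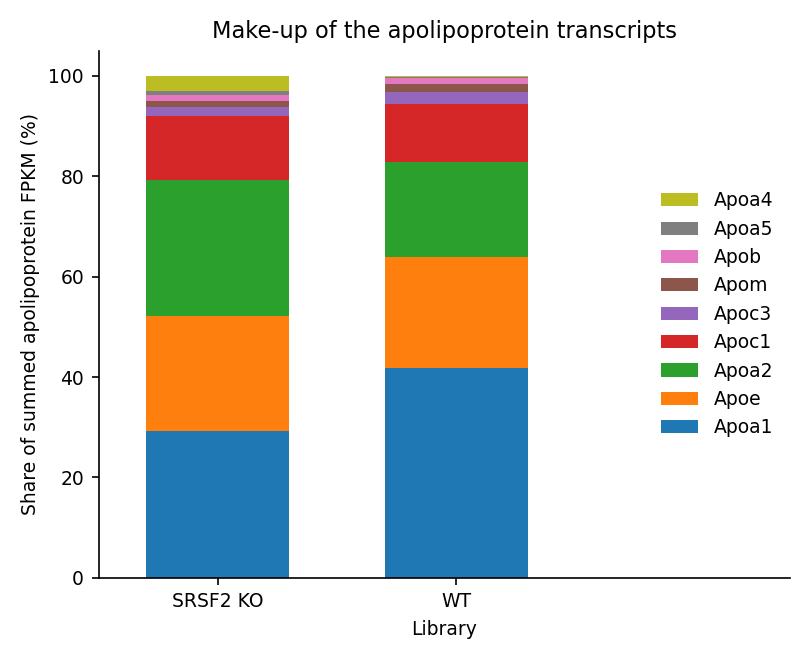
Share in percent of the summed FPKM of the 9 apolipoprotein genes taken by each gene, in the SRSF2 KO (left) and the WT (right) library. Apoa1 takes 29.2% in KO and 41.8% in WT, and Apoa4 3.06% and 0.148%.

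Most hepatocyte markers were lower in the KO library by more than the apolipoproteins were. Of 10 hepatocyte markers, the 2-fold rule put 6 lower and 1 higher as deposited, and 7 lower and 1 higher on the centred scale. Of all tested genes, 2.95% were lower and 19.2% higher as deposited, and 6.66% and 5.67% when centred. Tat, Pck1 and Cps1 were higher in KO, with log2 ratios of 1.65, 0.22 and 0.22, above those of most apolipoproteins. The markers had a median log2 ratio of -1.23 and a sum of 50577 FPKM in KO and 110180 FPKM in WT. Every one of the 9 apolipoproteins had a higher log2 ratio than this marker median. So did most of all tested genes, of which only 2.95% were at least 2-fold lower as deposited. In a bulk library, fewer hepatocytes and less of a transcript per hepatocyte cannot be told apart. Per Alb transcript, Apoa1 stood at 0.322 in KO and 0.294 in WT, 1.10-fold higher, and Apoa2 at 0.299 and 0.134, 2.23-fold higher. The corresponding ratio was 1.44-fold for Apob, 1.61-fold for Apoe and 32.3-fold for Apoa4.

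Among the 9 genes, the lowest and the highest ratio both lay in the chromosome 9 cluster. In chromosomal order Apoa1 and Apoc3 had log2 ratios of -0.85 and -0.73, and the adjacent Apoa4 and Apoa5 had 4.01 and 1.21. The intervals of their folds did not overlap between the lower and the higher pair. They cover counting error only, not variation between animals. The pairs were formed from the same ratios, so the separation of the intervals adds no support. Of the 3 protein-coding genes on each side, Sidt2, Pafah1b2 and Sik3 beside Apoa1 had log2 ratios of -0.15, 1.04 and 0.29. Beyond Apoa5, Zpr1 and Bud13 had 0.81 and 0.72, and 4931429L15Rik had 1 read in KO and 0 in WT. On chromosome 7, Apoe and Apoc1 lie beside Apoc4, a further member of the C group, which stood at 453 FPKM in KO and 1394 FPKM in WT, 3.07-fold lower (2.99 to 3.16). Outside this group, Bcam, Nectin2, Tomm40, Clptm1 and Relb had log2 ratios of 1.45, 0.87, 0.41, 0.58 and 1.38, and Gm44805 was not matched. The apolipoproteins of chromosome 7 had log2 ratios below those of these 5 neighbours, while those of chromosome 9 lay on both sides of theirs.

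**Figure D4:**
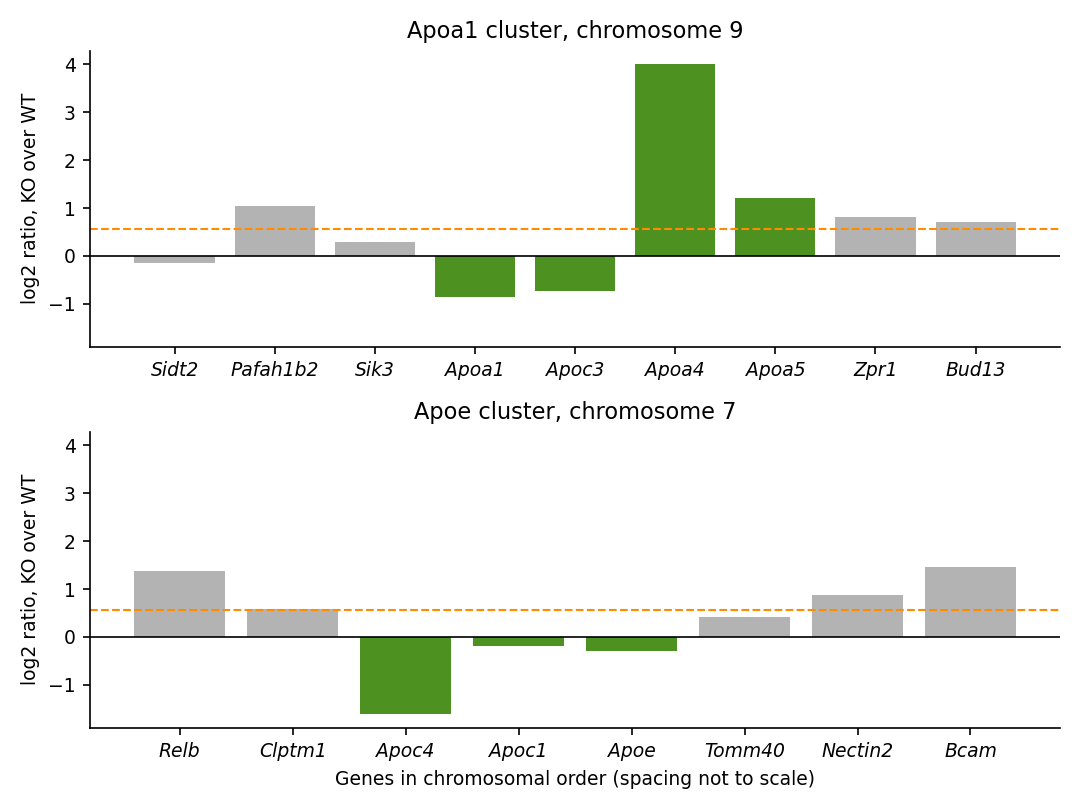
Log2 ratio, SRSF2 KO over WT, of the apolipoprotein genes (green) and the nearest tested protein-coding genes (grey) in chromosomal order, for the clusters on chromosomes 9 and 7, with the dashed line at the median of all tested genes, 0.55. Apoa4 at 4.01 stands next to Apoc3 at -0.73, and all 3 green bars on chromosome 7 lie below 0 as deposited and relative to that median.

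Other apolipoproteins and serum amyloid A genes, the acute phase apolipoproteins of HDL, stood lower in KO, with a median log2 ratio of -1.62 (centred, -2.17). The 2-fold rule put 6 of 11 tested genes lower and 1 higher, and on the centred scale 9 lower and 0 higher. Of all tested genes, 2.95% were lower and 19.2% higher as deposited, and 6.66% and 5.67% when centred. Saa1 stood at 5.75 FPKM in KO and 83.8 FPKM in WT, Saa2 at 2.94 and 22.2 FPKM, and Saa4, a constitutively made member, at 17.0 and 98.9 FPKM. Saa1 and Saa2 are near-identical, so how shared reads were divided between them is uncertain. Apoh, which encodes a phospholipid-binding plasma protein, stood at 894 FPKM in KO and 1293 FPKM in WT. Clu, which encodes the secreted chaperone clusterin or apoJ and was the 1 gene past 2-fold higher, stood at 1319 and 635 FPKM.

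Genes of VLDL assembly and secretion had a median log2 ratio of 0.51 (centred, -0.05). The 2-fold rule put 1 of 14 tested genes higher and 0 lower, and on the centred scale 0 higher and 1 lower. The shares over all tested genes were 19.2% and 2.95%, and 5.67% and 6.66% when centred. The higher one was Mttp, whose product loads lipid onto apoB, at 116 FPKM in KO and 51.7 FPKM in WT, 2.25-fold higher (2.18 to 2.32), while Apob itself was 1.37-fold lower. Sar1b, a coat protein gene for export of large particles from the endoplasmic reticulum, stood at 104 and 52.6 FPKM. Dgat1, an enzyme gene of triglyceride synthesis, stood at 8.26 and 3.82 FPKM, and P4hb, the subunit partner of the Mttp product, at 536 and 513 FPKM.

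The 4 factors of apoB mRNA editing had a median log2 ratio of 0.49 (centred, -0.07). On both scales 1 of the 4 was past 2-fold higher, against 19.2% and 5.67% of all tested genes. This was Apobec1, the cytidine deaminase that makes the stop codon of apoB-48, at 31.2 FPKM in KO and 6.31 FPKM in WT, 4.95-fold higher (4.43 to 5.54). Its partner A1cf stood at 19.84 and 19.96 FPKM, the cofactor gene Rbm47 at 6.71 and 4.97 FPKM, and Syncrip, an RNA-binding protein gene, at 7.74 and 4.75 FPKM.

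Genes of HDL formation and remodelling had a median log2 ratio of 0.28 (centred, -0.27). By the 2-fold rule, 3 of 12 were higher and 1 lower, and on the centred scale 0 higher and 2 lower. Over all tested genes the shares were 19.2% and 2.95%, and 5.67% and 6.66% when centred. Pltp, which encodes the plasma phospholipid transfer protein, stood at 61.5 FPKM in KO and 26.3 FPKM in WT, and the cholesterol exporter gene Abcg1 at 8.24 and 3.56 FPKM. Pon1, the paraoxonase carried on HDL, was 3.50-fold lower, at 100.4 and 352 FPKM. Lcat, the enzyme that apoA-I activates, stood at 466 and 376 FPKM.

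Genes of lipolysis control and particle uptake had a median log2 ratio of 0.65 (centred, 0.09). Past 2-fold there were 4 of 14 higher and 1 lower, and on the centred scale 3 higher and 2 lower. The shares of all tested genes were 19.2% and 2.95%, and 5.67% and 6.66% when centred. Angptl4, which encodes an inhibitor of lipoprotein lipase, stood at 154 FPKM in KO and 17.7 FPKM in WT, 8.69-fold higher (8.11 to 9.33).

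Transcriptional regulators known to act on apolipoprotein genes had a median log2 ratio of 0.22 (centred, -0.33). Past 2-fold there were 1 of 25 higher and 1 lower as deposited, and on the centred scale 0 higher and 6 lower. Among all tested genes the shares were 19.2% and 2.95%, and 5.67% and 6.66% when centred. The genes past 2-fold as deposited were Srebf2, the regulator of cholesterol synthesis, at 15.02 FPKM in KO and 6.94 FPKM in WT, and Srebf1, the regulator of fatty acid synthesis, at 17.6 and 46.7 FPKM. Foxa2, a forkhead factor gene, stood at 5.04 and 11.0 FPKM. Creb3l3, whose product CREB-H acts on Apoa4 and Apoa5 in mouse liver, stood at 119 FPKM in KO and 92.0 FPKM in WT. The receptor genes Hnf4a (93.2 FPKM in KO and 90.6 FPKM in WT) and Ppara (26.9 and 42.2 FPKM) are named after their values were seen.

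**Figure D5:**
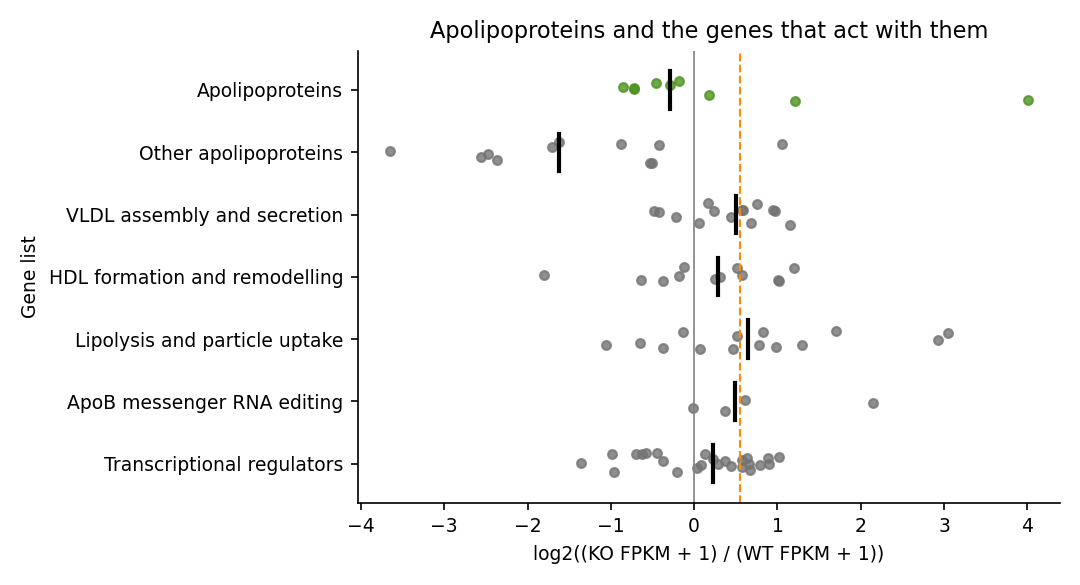
Log2 ratio, SRSF2 KO over WT, of each tested gene (points) in the apolipoprotein list (green) and 6 lists of genes that act with them (grey), with the list median as a black bar and the median of all tested genes as a dashed line at 0.55. The medians are -0.29 for the 9 apolipoproteins, -1.62 for the other apolipoproteins and between 0.22 and 0.65 for the remaining lists, all of which but lipolysis and uptake fall below the dashed line.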

How the data were processed

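Per the submitters' processing notes, reads were aligned with Bowtie 0.12.2 to mouse build mm9. Per the labels' protocols, frozen livers were extracted with Trizol and libraries made by standard Illumina procedures. The authors deposited 1 table per library, with RefSeq accessions as lines and, per the file headers, columns of read counts and of FPKM. Not given in the labels or headers are the counting program, strand use, the handling of multi-mapped reads and any pooling of animals.

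Symbols came from RefSeq (GRCm38.p6) and GENCODE tables, for 23419 of 26449 accessions, with 13 accessions on 2 lines summed. Upstream sequences are RefSeq's. The members and lists were chosen with earlier results of these data known, and the motifs and chromosomal neighbours were chosen after the values were seen. All members were named, and of each other list the 3 with the largest log2 ratio in either direction and the 1 of highest mean FPKM. Clu, Apoc4, Hnf4a, Ppara and the marker genes are outside that rule. Some genes that the rule names are not reported here. Genes with at least 1 FPKM in either library were compared with a pseudocount of 1. The FPKM worth of a read was 1.01 times as large in KO as in WT. No p-value was computed. Intervals are exact and cover counting error only. The code was tested on simulated data. Alternatives were a pseudocount of 0.1 or 5, no filter or one of 5 FPKM, TPM, CPM, centring, rescaling without 20 genes, the highest accession, and 1.5-fold or 4-fold rules. Scripts ran on Python 3.11.15 with scipy 1.17.1, pandas 2.3.3, matplotlib 3.10.9 and numpy 2.4.6.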

Additional observations from a re-analysis of the deposited data

How the results depend on the processing

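The scaling set most values. After centring on the median of all tested genes, 1 apolipoprotein was at least 2-fold higher in KO and 4 were lower, with a median log2 ratio of -0.85 and a summed ratio of 0.539. Rescaling without the 20 most abundant genes gave 1 higher, 3 lower, a median of -0.63 and a summed ratio of 0.627. Centring on the median of the hepatocyte markers was added after the data were seen. It gave 4 higher, 0 lower, a median of 0.94 and a summed ratio of 1.86, the sign of 6 genes changing. Apoc1, the lowest of these 4, had a ratio above that of only 10.8% of all tested genes. Most tested genes thus also pass the 2-fold rule on this scale, so the count of 4 does not set the apolipoproteins apart. The 4-fold rule left 1 higher and the 1.5-fold rule found 3 lower. No share of all tested genes was computed for these rules or for the rescaling without 20 genes. Their counts therefore cannot be set against genes in general. The median was -0.28 and the summed ratio 0.796 on the TPM scale, and -0.28 and 0.798 without the pancreas, muscle and intestinal markers, also added later. CPM from the read counts gave a summed ratio of 0.777. The pseudocounts, the filters and the choice of accession left both counts as they were. Apoa4 ranged from 3.45 to 5.24 and Apoa5 from 0.65 to 2.44 over all settings. No paired analysis was possible because each genotype has 1 library, and for the same reason no replicate could be left out. Depth was no limit for the 9 genes, each with at least 2327 reads in a library.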

Other observations

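Among 629 named genes that reached 100 FPKM in either library, the 5 whose log2 ratio was closest to the 4.01 of Apoa4 were Gstp2, Gstm3, Tnfrsf12a, Cyp2a5 and Gstp1. This likeness rests on 1 ratio from 2 libraries. The glutathione S-transferase genes Gstp2 and Gstp1 stood at 814 and 2382 FPKM in KO and at 62.1 and 199 FPKM in WT, and share near-identical sequence, so their split is uncertain. Gstm3, another gene of that enzyme class, stood at 129 FPKM in KO and 5.47 FPKM in WT. Tnfrsf12a, the receptor gene for the cytokine TWEAK, stood at 112 and 4.61 FPKM, and the cytochrome P450 gene Cyp2a5 at 184 and 13.6 FPKM.

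Markers of other cell types are given against all tested genes, of which 84.5% were higher in KO and 19.2% past 2-fold higher (5.67% on the centred scale). Past 2-fold lower were 2.95% of all tested genes (6.66% on the centred scale). Of 7 bile duct markers, 4 were past 2-fold higher and 2 on the centred scale (summed 112 FPKM in KO and 43.4 in WT). Of 7 stellate cell and fibroblast markers, 4 were past 2-fold higher and 1 on the centred scale (432 FPKM in KO and 158 in WT). Of 7 endothelial markers, 0 were past 2-fold on either scale (133 FPKM in KO and 113 in WT). Of 4 tested erythroid markers, 0 were past 2-fold as deposited, and 2 were lower on the centred scale, the globin gene Hba-a1 at -1.38 and the heme synthesis gene Alas2 at -1.35 (the list summed to 236 FPKM in KO and 415 in WT). None of 5 adipocyte markers reached 1 FPKM in either library. Apoa1 and Apoa2 together stood at 15850 FPKM in KO and 21606 FPKM in WT.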
